A study of Mus musculus with 6 samples.

Results

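A set of noncoding RNAs of aortic EC, Gm26917, Malat1, Neat1, Gas5, Snhg1 and Snhg12, were followed by the share of each library's counts that they took. They were picked by symbol from the count table, with their values in these libraries already known, and are 6 of the 54429 genes in the table, of which 27948 had a count. All 6 were among the 16065 genes that passed the filter on low counts.

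The study asked what over-expression of the transcription factor Meis1 does to the transcriptome of endothelial cells (EC). Primary EC from the aorta of adult wild-type C57BL/6 mice, bought from a supplier, were transduced with a Meis1-OE vector or with a YFP-CTRL control vector, and YFP+CD31+VEC+ cells of both conditions were sorted, re-plated and grown to confluency before total RNA was extracted. Each condition had 3 independent replicates. Libraries were made from total RNA after depletion of ribosomal RNA. The libraries carry the letters A, B and C in the deposited table, whose meaning is not stated. Where 3 values are given for a condition, they are those of A, B and C in turn.

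The 6 RNAs belong to 3 kinds. Gm26917 is a predicted gene of a stretch of ribosomal DNA-like sequence on mouse chromosome 17 that also holds Gm42418, and how the counting divided reads between it and ribosomal RNA precursors is not stated. Malat1 and Neat1 are long RNAs kept in the nucleus: Malat1 collects in nuclear speckles, where splicing factors are stored, and Neat1 is the scaffold around which paraspeckles assemble. Gas5, Snhg1 and Snhg12 are host genes whose introns are processed into small nucleolar RNAs (snoRNAs), the guides for chemical modification of ribosomal RNA, while their spliced exons leave the nucleus, begin with a pyrimidine tract of the 5′ TOP type and are removed by nonsense-mediated decay when they are translated.

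In the RefSeq annotation of GRCm38.p6 (the build mm10 named in the submitters' processing notes), 5 of the 6 symbols were found. Malat1 spans chr19:5795690-5802672, a stretch of 6983 bases that also holds the small RNA gene Mascrna, and Neat1 spans chr19:5824708-5845480, a stretch of 20773 bases on the same chromosome. Gas5 spans chr1:161034601-161038539 and shares its span with 8 snoRNA genes and with part of the coding gene Zbtb37. Snhg1 spans chr19:8723487-8726326 with 8 snoRNA genes inside it, and Snhg12 spans chr4:132308678-132311024 with 4, Snora16a, Snora44, Snora61 and Snord99. Whether strand was used in counting is not stated, so reads in the shared stretches of Gas5 cannot be assigned to one gene with certainty.

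The promoters of the 3 snoRNA hosts are shown because these RNAs differed between libraries together, and that of Malat1 because it differed most among libraries. Each is the RefSeq sequence (GRCm38.p6) from 250 bases before to 50 bases after the transcription start, written 5′ to 3′ on the strand of the gene, with capitals at matches to motifs searched on both strands. These were the TATA box variants TATATA and, separately, TATAAA, the short pyrimidine run CCTTTC and the hexamer TGACAG that MEIS factors bind.
Gas5 (chr1:161034916-161035215, plus strand, the downstream of its RefSeq starts): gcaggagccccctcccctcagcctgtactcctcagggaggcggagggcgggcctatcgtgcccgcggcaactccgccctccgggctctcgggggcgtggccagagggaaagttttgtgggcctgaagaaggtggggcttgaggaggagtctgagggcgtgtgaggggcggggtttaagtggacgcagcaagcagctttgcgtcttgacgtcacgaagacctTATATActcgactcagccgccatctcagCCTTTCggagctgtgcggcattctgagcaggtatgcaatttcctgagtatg
Snhg1 (chr19:8723237-8723536, plus strand): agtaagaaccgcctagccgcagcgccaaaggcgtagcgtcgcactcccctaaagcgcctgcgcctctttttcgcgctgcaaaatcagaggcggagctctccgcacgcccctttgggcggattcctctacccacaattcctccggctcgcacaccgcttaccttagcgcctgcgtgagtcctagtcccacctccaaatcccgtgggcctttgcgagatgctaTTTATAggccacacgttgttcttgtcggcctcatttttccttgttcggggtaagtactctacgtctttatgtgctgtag
Snhg12 (chr4:132308428-132308727, plus strand): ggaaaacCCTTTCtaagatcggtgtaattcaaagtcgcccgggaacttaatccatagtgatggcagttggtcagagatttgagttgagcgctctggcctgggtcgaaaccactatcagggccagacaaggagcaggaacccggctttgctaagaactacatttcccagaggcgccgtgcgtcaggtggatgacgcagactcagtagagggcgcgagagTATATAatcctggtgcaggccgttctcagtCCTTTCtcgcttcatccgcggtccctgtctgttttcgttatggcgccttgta
Malat1 (chr19:5802623-5802922, minus strand): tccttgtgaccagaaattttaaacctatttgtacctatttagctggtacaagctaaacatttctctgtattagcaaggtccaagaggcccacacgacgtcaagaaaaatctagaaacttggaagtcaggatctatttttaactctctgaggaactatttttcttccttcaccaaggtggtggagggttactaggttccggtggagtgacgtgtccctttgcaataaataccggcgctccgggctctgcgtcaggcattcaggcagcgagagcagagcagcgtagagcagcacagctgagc
TATATA began 29 bases before the downstream start of Gas5 and 32 bases before that of Snhg12, and 5.67% of the 32851 promoters of the same length held it. Snhg1 held TATAAA, in the orientation of the opposite strand, 29 bases before its start, a motif found in 13.6% of promoters. CCTTTC lay 1 base before the downstream start of Gas5 and 2 bases before that of Snhg12, with another copy 243 bases before the Snhg12 start, and 23.8% of promoters held it. The Malat1 window held none of these motifs, and TGACAG, found in 19.2% of promoters, was in none of the windows printed here. The window of the upstream RefSeq start of Gas5 (chr1:161034351-161034650) is not printed and held no match to any of the motifs. These matches describe the sequence only.

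Totals ran from 34176592 counts in YFP-CTRL library A to 47956569 in YFP-CTRL library C after rounding of the deposited estimated counts, and the Meis1-OE libraries held between 41433391 and 45538924. Meis1 itself was at 3266, 3586 and 3277 CPM (counts scaled to the library total) in the Meis1-OE libraries, against 1.14, 1.30 and 1.77 CPM in the YFP-CTRL libraries, where vector and endogenous reads were not told apart. The endothelial genes Pecam1 and Cdh5 were at 764 CPM or more in every library. Of the 10 endothelial markers, 1 was higher in Meis1-OE EC, Vwf, a clotting factor carrier (log2 fold change 3.12, adjusted p = 0.0120, edgeR), and 1 was lower, Tek, the angiopoietin receptor (-0.78, adjusted p = 0.0351), beside 4.14% of all tested genes called higher and 2.73% called lower. Vwf was lost without Meis1-OE library B or C or YFP-CTRL library B, where the adjusted p was at most 0.0753, and Tek without any one Meis1-OE library or YFP-CTRL library B, where it was at most 0.173. Both were also lost with the S and G2/M phase score described below in the model (adjusted p = 0.0740 and 0.0813). Kdr and Cdh5 lay below 0 without passing (-1.23 and -0.70, adjusted p = 0.0504 and 0.0535, edgeR), while 5 of the 10 lay above 0. DESeq2 called 3 of the 10 lower and 1 higher, beside 3.99% and 4.04% of all 27948 genes with a count. The summed level of the 10 was 3770 to 4317 CPM in Meis1-OE EC against 4492 to 5705 CPM in YFP-CTRL EC. Cd68 made up most of the summed macrophage markers, which ran from 77.0 to 108 CPM in the Meis1-OE and from 64.7 to 128 CPM in the YFP-CTRL libraries. C1qa, C1qb, Tyrobp and Adgre1 were at 0 in all 6. Lyz2 and Csf1r, at 0.909 CPM or less, each had a log2 fold change of 1.63 that did not pass (adjusted p = 0.181 and 0.148, edgeR). Without Meis1-OE library A, 1 macrophage marker was called higher, beside 329 of 16324 genes. The same held without YFP-CTRL library C, beside 16.5% of genes. The summed level of the 8 fibroblast and smooth muscle markers was 16.2 to 19.7 CPM in Meis1-OE EC against 34.7 to 49.6 CPM in YFP-CTRL EC. Pdgfra made up most of that sum except in YFP-CTRL library C, where Acta2 was at 18.8 CPM. It was at 13.1, 12.2 and 11.9 CPM in the Meis1-OE and 33.1, 45.0 and 14.7 CPM in the YFP-CTRL libraries. Col1a1, Col1a2, Col3a1, Tagln and Myh11 were at 0.605 CPM or less in every library. The log2 fold change was -1.47 for Pdgfra and -1.96 for Acta2, but 0.55 for Pdgfrb. The part of these markers in the values below was not tested. The libraries also stood apart within YFP-CTRL EC: the mean log2(CPM + 1) of 15 S and G2/M phase genes was 4.39, 5.13 and 6.45 in the YFP-CTRL libraries but 6.58 to 6.68 in the Meis1-OE libraries. Mki67, a marker of cycling cells, followed the same order, at 63.4, 187 and 559 CPM in the YFP-CTRL libraries and 639 to 741 CPM in Meis1-OE EC. Of the 15 phase genes, 0 passed an adjusted p under 0.05 in edgeR and 1 had an unadjusted p under 0.05, as had 26.2% of all tested genes. DESeq2 called 1 higher, beside 4.04% of all 27948 genes with a count, low-count genes included. Without YFP-CTRL library C, edgeR called 14 higher, beside 16.5% of genes. Their part in the values below was not tested. In bulk RNA, fewer cells that express a gene and less of its RNA per cell cannot be told apart.

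Gm26917 was the gene with the most counts in each of the 6 libraries. It took 8.06%, 9.31% and 10.5% of all counts in the Meis1-OE libraries, against 11.8%, 13.0% and 14.1% in the YFP-CTRL libraries. The highest Meis1-OE share lay below the lowest YFP-CTRL share, so the conditions did not overlap. The mean share was 9.28% ± 1.21 in Meis1-OE EC (SD, n = 3) and 13.0% ± 1.15 in YFP-CTRL EC (SD, n = 3), a difference of -3.67 percentage points. At 3341204 to 6747509 counts per library the counting error was small, with a 95% Wilson interval of 8.06% to 8.07% in the library with the lowest share. These intervals cover counting error only. The share is one of sequenced counts, and how much of it came from ribosomal RNA left after depletion was not tested. Because the share of Gm26917 in these libraries was part of how the RNAs were picked, its difference is given as a description, with no test.

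Gm42418 of the same stretch, which RefSeq lists as the 18S ribosomal RNA-related pseudogene Rn18s-rs5 (chr17:39846354-39848202), varied alongside Gm26917. It took 13192, 13824 and 14028 CPM in the Meis1-OE libraries, against 16415, 18386 and 19830 CPM in the YFP-CTRL libraries, also without overlap. Its log2 fold change was -0.56 (SE 0.15), which did not pass the threshold in edgeR (quasi-likelihood test, Benjamini-Hochberg adjusted p = 0.0681) and passed it in DESeq2 (adjusted p = 0.0112). The number of Gm26917 counts for each Gm42418 count was 7.17, 7.08 and 7.10 in the YFP-CTRL libraries, almost constant, and 6.11, 6.74 and 7.47 in the Meis1-OE libraries. The mitochondrial ribosomal RNAs did not share the order. mt-Rnr2 was at 12360 to 13030 CPM in YFP-CTRL EC and at 13094, 24235 and 14241 CPM in the Meis1-OE libraries, where library B stood apart, and its difference did not pass the test (adjusted p = 0.475, edgeR).

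Malat1 was the next most abundant of the 6. It took 0.595%, 0.298% and 0.236% of the counts in the Meis1-OE libraries, against 1.32%, 0.342% and 0.204% in the YFP-CTRL libraries. The conditions overlapped, since YFP-CTRL library C held the lowest share and YFP-CTRL library A the highest, and Malat1 was the third gene by count in the latter but the 25th in the former. Its mean was 0.376% ± 0.192 in Meis1-OE EC and 0.621% ± 0.607 in YFP-CTRL EC (SD, n = 3 each). The difference between the means was thus smaller than the spread among the YFP-CTRL libraries. Without YFP-CTRL library A the log2 fold change of Malat1 went from -0.85 (SE 0.66) to 0.25, the opposite direction.

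Neat1 was at 467, 369 and 327 CPM in the Meis1-OE libraries, against 1051, 539 and 277 CPM in the YFP-CTRL libraries. As with Malat1, YFP-CTRL library A was the highest and YFP-CTRL library C the lowest of the 6. Per kilobase of gene span, Malat1 ran from 292 to 1886 CPM per kb and Neat1 from 13.3 to 50.6 CPM per kb over the 6 libraries. These values use the whole gene span. Shorter forms of either RNA were not told apart, so they compare the levels of the RNAs only roughly. Malat1 had 12.7 and 12.5 counts for each Neat1 count in library A of Meis1-OE and YFP-CTRL EC, but 6.34 to 8.07 in the other libraries, so the A libraries differed from the rest more in Malat1 than in Neat1.

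The 3 snoRNA hosts were far less abundant. Gas5, the highest of them, was at 67.4, 46.8 and 40.6 CPM in the Meis1-OE libraries, against 104, 62.5 and 50.6 CPM in the YFP-CTRL libraries. Each Meis1-OE library lay below the YFP-CTRL library of the same letter, but Meis1-OE library A was above YFP-CTRL libraries B and C, and the conditions overlapped.

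Snhg1 was at 44.6, 33.7 and 30.0 CPM in the Meis1-OE libraries, against 99.7, 63.6 and 41.5 CPM in the YFP-CTRL libraries. Only the highest Meis1-OE library and the lowest YFP-CTRL library crossed. Its log2 fold change of -1.06 (SE 0.29) was the furthest from 0 of the 6.

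Snhg12 was the least abundant, with 203 to 339 counts per library. It was at 5.79, 4.61 and 4.61 CPM in the Meis1-OE libraries, against 9.92, 6.93 and 5.38 CPM in the YFP-CTRL libraries. Its counting error was the widest of the 6, with an interval of 4.02 to 5.29 CPM in Meis1-OE library B, which overlaps that of YFP-CTRL library C (4.76 to 6.08 CPM). The intron-encoded snoRNAs of these hosts that the table lists, Snord47 of Gas5, Snord22 of Snhg1 and the 4 of Snhg12, were at 0 in all 6 libraries, which allows up to 3 counts in each. The other snoRNAs inside Gas5 and Snhg1 were not analysed here, and whether any of their reads were counted to the hosts was not tested.

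**Figure D1:**
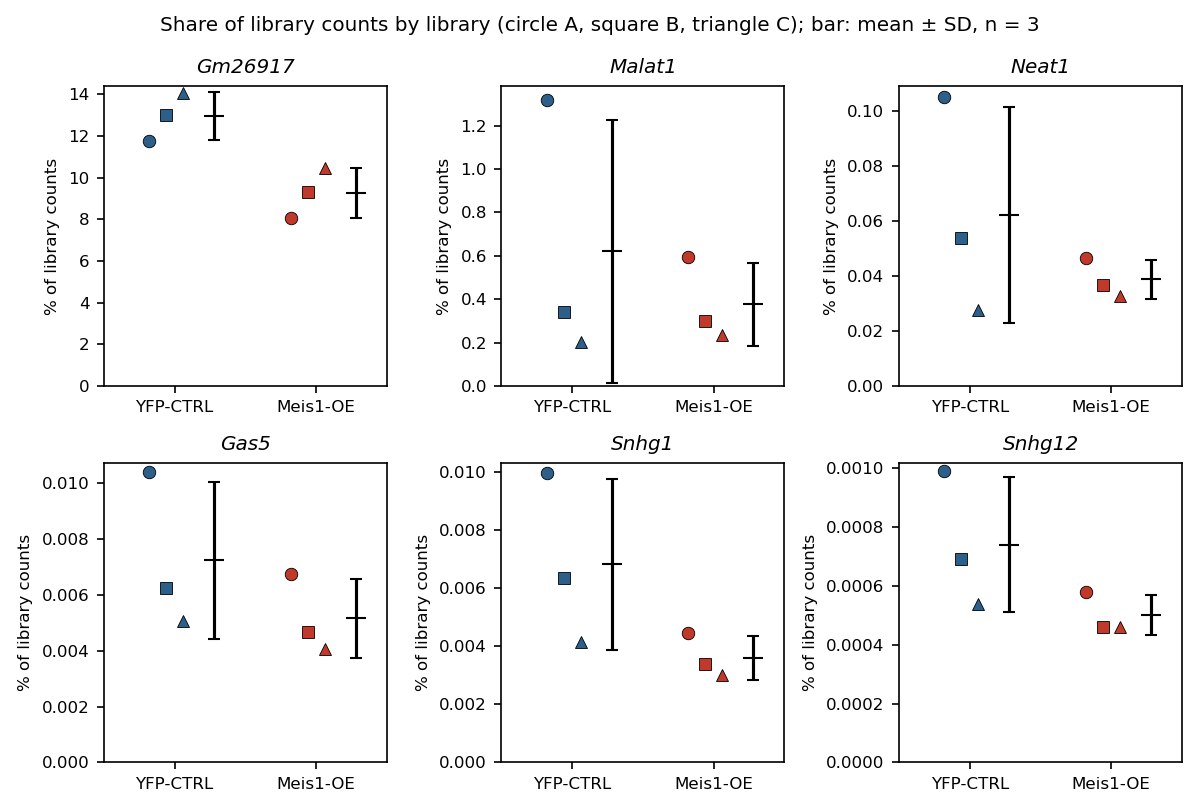
Share of all counts of a library (%, vertical axis, each panel with its own scale from 0) for each of the 6 noncoding RNAs in YFP-CTRL (blue) and Meis1-OE (red) EC, with circles for library A, squares for B and triangles for C, and the mean with SD (n = 3) beside them. The conditions separate for Gm26917, at 8.06% to 10.5% against 11.8% to 14.1%, and overlap for the other RNAs, where YFP-CTRL library A is the highest of the 6 libraries.

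Summed, the 6 RNAs took 8.72%, 9.66% and 10.8% of the counts in the Meis1-OE libraries, against 13.2%, 13.4% and 14.3% in the YFP-CTRL libraries. The means were 9.71% ± 1.02 and 13.6% ± 0.583 (SD, n = 3 each), and the difference was -3.94 percentage points. Gm26917 made up nearly all of this sum. Without it, the other 5 took 0.653%, 0.343% and 0.276% in the Meis1-OE libraries, against 1.44%, 0.409% and 0.242% in the YFP-CTRL libraries, and the conditions overlapped.

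Scaled with TMM, which sets the bulk of genes as the reference, the fitted log2 fold change of Meis1-OE over YFP-CTRL EC was -0.62 (SE 0.19) for Gm26917 and -0.81 (SE 0.41) for Neat1. It was -0.63 (SE 0.27) for Gas5 and -0.70 (SE 0.23) for Snhg12. With Malat1 and Snhg1, given above, all 6 values were below 0, beside a median of 0.01 over the 16065 genes tested. On CPM of the library total, 1 of the 6, Gm26917, did not overlap between conditions, beside 7.92% of all tested genes lower in this way and 29.2% higher. On TMM-scaled CPM, 3 of the 6 did not overlap, Gm26917, Snhg1 and Snhg12, beside 15.9% of tested genes lower and 17.2% higher. Nothing is read from these counts, since the RNAs were chosen on this contrast.

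Which counts the libraries were scaled to bore on all 6. When library totals replaced TMM, the log2 fold changes became -0.48 for Gm26917, -0.72 for Malat1, -0.68 for Neat1, -0.49 for Gas5, -0.92 for Snhg1 and -0.56 for Snhg12. The median over all tested genes moved from 0.01 to 0.15, so each of the 6 lay about as far below the median as before. When the counts of Gm26917 were taken out of the totals, the median was 0.09 and the 6 values ran from -0.98 for Snhg1 to -0.54 for Gm26917. The split of all calls moved with it: 60.3% of the genes called with TMM were higher in Meis1-OE EC (665 higher, 438 lower), against 85.3% with library totals (1048 higher, 180 lower, or 6.52% and 1.12% of tested genes).

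**Figure D2:**
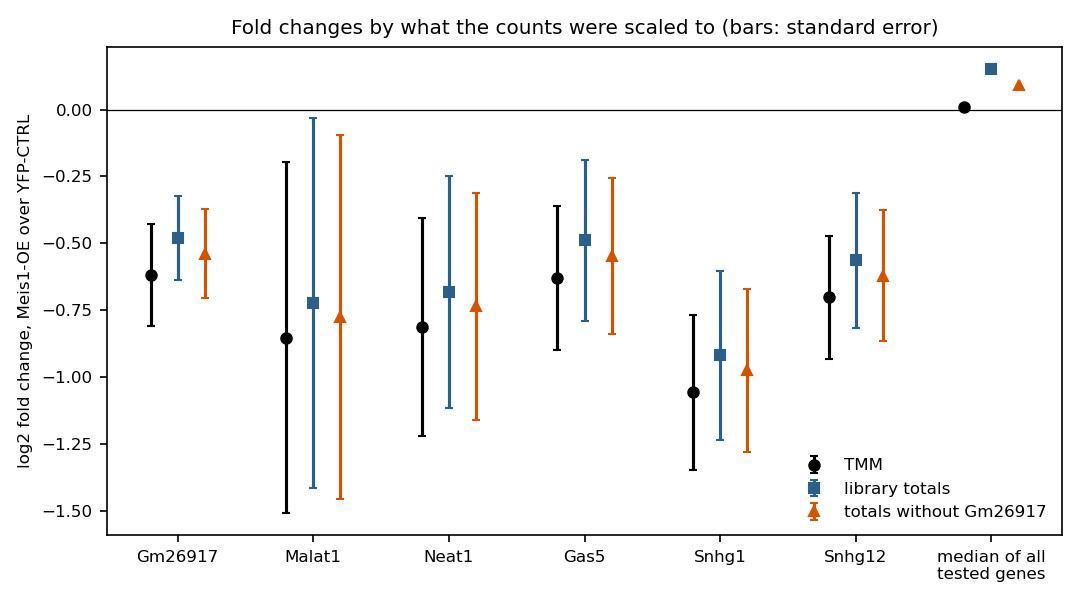
Fitted log2 fold change of Meis1-OE over YFP-CTRL EC (vertical axis) for the 6 noncoding RNAs and, at the right, the median of the 16065 tested genes, with counts scaled by TMM (circles), to library totals (squares) or to totals without Gm26917 (triangles), and bars for the standard error. All 6 lie below 0 under each scaling, with the widest error for Malat1 (0.66 with TMM), and the median rises from 0.01 to 0.15 on library totals.

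The fold changes moved when single libraries were left out, and that of Malat1 changed direction. With each library left out in turn, the log2 fold change of Gm26917 ran from -0.74 to -0.49, that of Malat1 from -1.29 to 0.25 and that of Neat1 from -1.16 to -0.28. For Gas5 it ran from -0.83 to -0.33, for Snhg1 from -1.32 to -0.74 and for Snhg12 from -0.89 to -0.49. The values nearest to 0 or above it for Malat1, Neat1 and the 3 hosts came without YFP-CTRL library A, the library with the lowest level of S and G2/M phase genes. With the S and G2/M phase score of each library in the model, the log2 fold change was -0.79 for Gm26917, 1.09 for Malat1, 0.52 for Neat1, -0.24 for Snhg1 and -0.17 for Snhg12, and Gas5 was at -0.00. With 6 libraries, the parts of the score and of the condition cannot be told apart.

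A comparison of libraries A and C inside each condition, which does not use the contrast between conditions and was chosen after the data were seen, set Gm26917 apart from the other 5. On the log2 scale of TMM-scaled CPM, Malat1 was higher in library A than in library C by 1.22 in Meis1-OE EC and by 2.62 in YFP-CTRL EC, that is 2.32-fold and 6.15-fold. Only 21 of the 16065 tested genes (0.131%) were at least as far apart in that direction in both conditions. For comparison, the median distance of a gene between libraries A and C, in either direction, was 0.19 in Meis1-OE EC and 0.42 in YFP-CTRL EC.

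The other nuclear RNA and the snoRNA hosts pointed the same way. Neat1 was higher in library A by 0.40 and 1.85 in Meis1-OE and YFP-CTRL EC, which 0.896% of tested genes matched or passed in both conditions. Gas5 was higher by 0.61 and 0.97 (2.66% of genes), Snhg1 by 0.45 and 1.20 (2.11%) and Snhg12 by 0.21 and 0.81 (5.15%). Gm26917 was lower in library A than in library C, with differences of -0.50 and -0.33 on the same scale, matched or passed by 2.87% of genes. Library A was highest and library C lowest in both conditions for 4 of the 6, Malat1, Neat1, Gas5 and Snhg1, and for 5.30% of all tested genes. The reverse order held for Gm26917 and for 9.35% of tested genes. On CPM of the library total, the first order held for 5 of the 6, Snhg12 included, and for 8.07% of genes, and the reverse for Gm26917 and 4.62% of genes. With a single pair of libraries in each condition these distances have no replicate check, and neither what the letters stand for nor the part of growth state was tested.

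**Figure D3:**
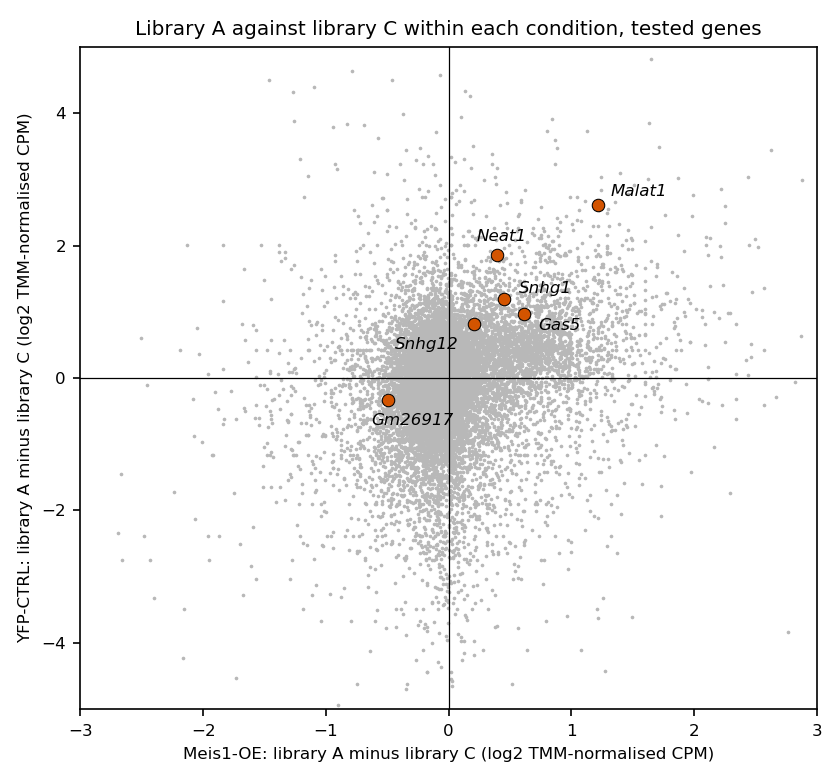
Difference between library A and library C on the log2 scale of TMM-scaled CPM in Meis1-OE EC (horizontal axis) and YFP-CTRL EC (vertical axis) for tested genes (grey, 68 of 16065 outside the axes) and the 6 noncoding RNAs (orange). Malat1 lies furthest to the upper right of the 6, at 1.22 and 2.62, Neat1, Gas5, Snhg1 and Snhg12 share its quadrant, and Gm26917 lies in the opposite one, at -0.50 and -0.33.

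Genes whose pattern over the 6 libraries was most like that of each RNA were found among 10220 genes with a mean of at least 5 CPM, by the root mean square difference of centred log2(CPM + 1). For Gm26917 these were Gm42418 (0.0918), Il27ra (0.0924), Wwtr1 (0.108), Tek (0.108) and Gm23547 (0.112). For Malat1, which itself varied most of the 6, the nearest were further off, with Gm38157 at 0.347, Dmpk at 0.385 and Parvg at 0.387. Parvg, a parvin that binds actin, was also near to Neat1 (0.160), beside 5330431K02Rik (0.159) and Gdap10 (0.173). Gas5 was nearest to Prr3 (0.0212), Paxbp1 (0.0965) and Gm42515 (0.0998). Snhg1 was nearest to Enah (0.0716), Gnl3 (0.0739), which encodes the nucleolar GTPase nucleostemin, and Hoxd4 (0.101). Snhg12 was nearest to Thoc6 (0.0389), Qtrt2 (0.0449) and Rexo4 (0.0465). All share the same 6 libraries and their depth, and no p is given.

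Other genes of the same kinds were read from lists chosen with earlier results of these data known, at an adjusted p under 0.05 in edgeR. Of the 13 other snoRNA hosts tested, 3 were lower, 0 were higher and 10 did not pass, beside 2.73% of all tested genes called lower. Their median log2 fold change was -0.31 beside 0.01 for all genes. Zfas1 fell by 1.32 on the log2 scale (SE 0.29, adjusted p = 0.0416), from 64.2, 43.9 and 25.6 CPM in the YFP-CTRL libraries to 20.7, 19.2 and 18.9 CPM in the Meis1-OE libraries. Epb41l4aos fell by 1.03 (SE 0.23, adjusted p = 0.0453) and Snhg15 fell by 0.93 (SE 0.21, adjusted p = 0.0436). Snhg17, with means of 23.6 ± 7.86 CPM in the Meis1-OE and 38.3 ± 18.5 CPM in the YFP-CTRL libraries (SD, n = 3 per condition), had a log2 fold change of -0.84 that did not pass (adjusted p = 0.161). The other abundant hosts lay nearer to 0 and did not pass either, at -0.31 for Snhg6, -0.14 for Snhg5 and -0.08 for Snhg4. Zfas1 thus had the order of libraries seen for Snhg1, with YFP-CTRL library A highest. The 3 calls were lost on library totals, with the S and G2/M phase score in the model and without any one Meis1-OE library or YFP-CTRL library A or B. Zfas1 and Epb41l4aos were also lost with the column letter as a replicate block, where Snhg17 passed (adjusted p = 0.0441, edgeR). Epb41l4aos was lost with a minimum of 10 counts in all libraries too.

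Proteins that bind snoRNAs were counted next. Of the 8 core proteins of box C/D and H/ACA snoRNPs tested, 4 were lower and 0 higher, beside 2.73% of all tested genes called lower. These are the enzymes and their partners that modify ribosomal RNA. All 8 had a log2 fold change below 0, and the median was -0.93. Dkc1, the pseudouridine synthase of the H/ACA particle, fell by 0.95 on the log2 scale (SE 0.15, adjusted p = 0.0165), from 92.8, 68.7 and 61.6 CPM in the YFP-CTRL libraries to 47.7, 40.2 and 39.3 CPM in the Meis1-OE libraries. Its partners Nhp2 (-0.67, SE 0.12, adjusted p = 0.0207) and Gar1 (-1.12, SE 0.26, adjusted p = 0.0479) and the box C/D protein Nop56 (-0.99, SE 0.21, adjusted p = 0.0357) were the others. DESeq2 called 8 of the 8 lower, beside 3.99% of all 27948 genes with a count, which include low-count genes that the edgeR filter left out. edgeR called 1 on library totals, none without any one Meis1-OE library, without YFP-CTRL library B or with the S and G2/M phase score in the model, 3 without YFP-CTRL library A, beside 2.63% of all genes called lower, and 8 without YFP-CTRL library C, beside 15.2%.

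Transcription of ribosomal DNA and the decay of host RNAs were read in the same way. Of 15 genes of RNA polymerase I and its factors, 1 passed, Polr1a, the largest subunit, which fell by 0.52 (SE 0.11, adjusted p = 0.0380), and the median was -0.47. Of 17 nonsense-mediated decay factors, 1 passed, Upf1, the central helicase of the pathway, which fell by 0.75 (SE 0.16, adjusted p = 0.0410), and the median was -0.29. Over all tested genes, edgeR called 2.73% lower. DESeq2 called 7 of the 15 and 6 of the 17 lower, and 1 decay factor higher. Among all 27948 genes with a count, DESeq2 called 3.99% lower and 4.04% higher. Both edgeR calls were lost on library totals, with the S and G2/M phase score in the model and without any one Meis1-OE library or YFP-CTRL library A or B. They were also lost with the column letter as a replicate block, and that of Polr1a without a filter on low counts. On library totals 1 decay factor was called higher, beside 6.52% of tested genes. Without YFP-CTRL library C, 8 of the 15 and 10 of the 17 were called lower, beside 15.2% of all genes, and 3 decay factors were called higher, beside 16.5%.

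Among 15 small structured noncoding RNAs tested, 3 were lower and 0 higher, with a median of -0.38, beside 2.73% of all tested genes called lower. Scarna2, a guide RNA of Cajal bodies, fell by 0.62 (SE 0.12, adjusted p = 0.0287), and its 3 Meis1-OE libraries, at 52.0, 58.7 and 48.0 CPM, lay below the YFP-CTRL libraries, at 78.2, 67.3 and 76.0 CPM. Rpph1, the RNA of ribonuclease P, fell by 0.57 (SE 0.11, adjusted p = 0.0315) and Rmrp, the RNA of ribonuclease MRP, fell by 0.54 (SE 0.11, adjusted p = 0.0343). Unlike Malat1 and the snoRNA hosts, Scarna2, Rpph1 and Rmrp did not have YFP-CTRL library A far above YFP-CTRL library C. These 3 calls were lost on library totals and without any one Meis1-OE library or YFP-CTRL library B, and those of Scarna2 and Rpph1 also with the S and G2/M phase score in the model (adjusted p = 0.0711 and 0.0511).

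Few other long noncoding RNAs differed. Of 18 tested, 1 was higher and 0 lower in edgeR, with a median of -0.15, beside 4.14% of all tested genes called higher and 2.73% lower. Abundant ones did not pass, with log2 fold changes of -0.14 for Tug1 (adjusted p = 0.490), -0.03 for 2900097C17Rik (adjusted p = 0.922), 0.00 for Lncpint (adjusted p = 0.995) and 0.19 for Peg13 (adjusted p = 0.411). H19, an imprinted RNA, passed the test at 1.35 (SE 0.32, adjusted p = 0.0492), with low means of 0.606 CPM in the Meis1-OE and 0.211 CPM in the YFP-CTRL libraries, but the call was lost with DESeq2, DESeq2's size factors, no filter on low counts or the S and G2/M phase score, and with any library other than YFP-CTRL library C left out. The proteins of the bodies that Malat1 and Neat1 belong to did not pass with all 6 libraries. Of 14 paraspeckle proteins 0 passed in edgeR and 2 had an unadjusted p under 0.05, with a median of -0.06 and 1 called lower by DESeq2. Of 20 nuclear speckle proteins 0 passed and 6 had an unadjusted p under 0.05, with a median of -0.17 and 0 called by DESeq2. Over all tested genes, 26.2% had an unadjusted p under 0.05 in edgeR, and DESeq2 called 3.99% of the 27948 genes with a count lower. Without YFP-CTRL library C, 3 paraspeckle proteins were lower, and 6 speckle proteins were lower and 2 higher. In that setting 15.2% of all genes were called lower and 16.5% higher.

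**Figure D4:**
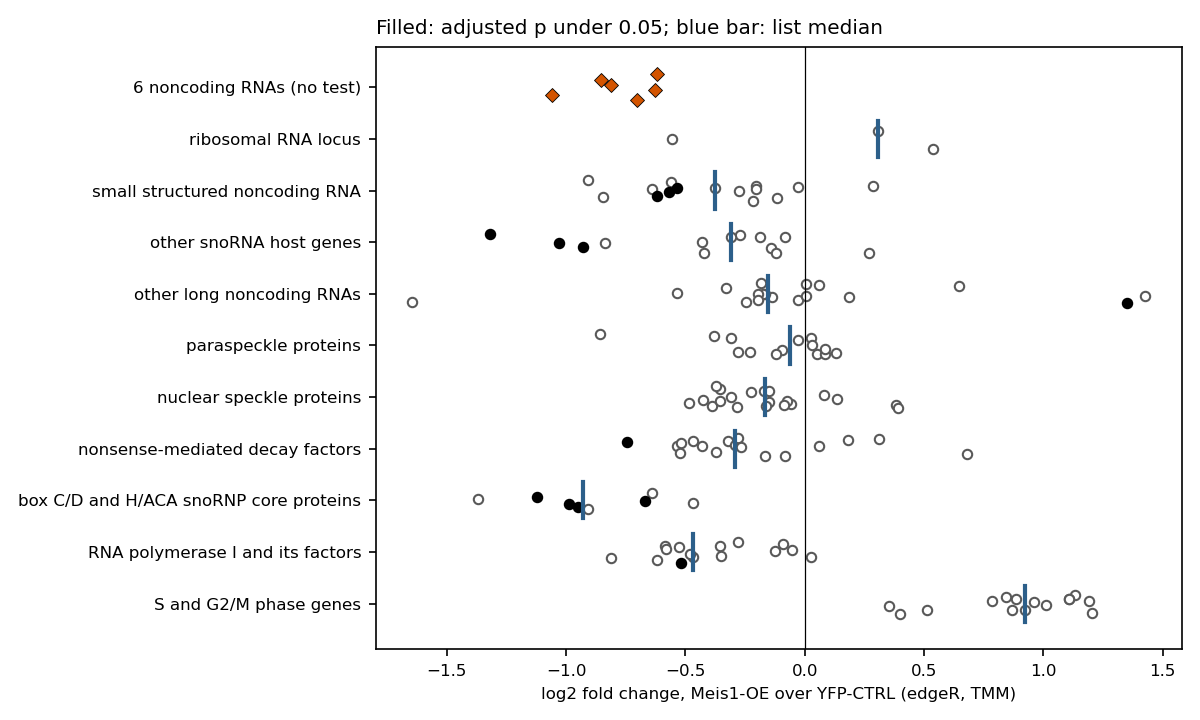
Fitted log2 fold change of Meis1-OE over YFP-CTRL EC (horizontal axis, edgeR with TMM) for every tested gene of each list (circles, filled at an adjusted p under 0.05), with a blue bar at the list's median and diamonds for the 6 noncoding RNAs, shown without a test. The snoRNP core proteins lie below 0, with a median of -0.93, as do the 6 RNAs, while paraspeckle proteins centre on -0.06 and the S and G2/M phase genes on 0.93 with none filled.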

How the data were processed

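Members and gene lists were chosen with earlier results of these data known. The authors deposited a table of estimated counts, without normalization, for 6 ribodepleted libraries. The genome build mm10 comes from the submitters' processing notes, and the aligner, the counting tool and the annotation are not given in the sources used here. Counts were rounded, since 7767 to 8411 genes in each library had fractional values. Conditions came from the labels.

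Shares are percent of the rounded counts of a library, with 95% Wilson intervals. Fold changes and calls came from edgeR 4.0.16 in R 4.3.3 (TMM, filterByExpr, quasi-likelihood test, default prior count, Benjamini-Hochberg threshold 0.05) with limma 3.58.1, fitted over 16065 genes with condition as the sole term. A prior count of 0.5 was used for the log2 differences between libraries A and C. Standard errors were derived from the F statistic. DESeq2 1.42.0, which the study used for this comparison, was an alternative, as were DESeq2's size factors, library totals with and without Gm26917 or the 6 RNAs, testing without a filter, a minimum of 10 counts in all libraries, each library left out, the column letter as a replicate block and the S and G2/M phase score as a covariate. No call or p is given for the 6 RNAs, which were chosen on this contrast. DESeq2 shares are out of all 27948 genes with a count, unlike edgeR shares, which are out of filtered genes. On simulated data for this comparison (16065 genes, 200 changed), edgeR recovered 44.2% of genes changed 2-fold and 86.0% of those changed 4-fold, with 4 false among 126 calls, while 53 of 194 calls by DESeq2 were false. The simulated counts were drawn independently for each library, for the filtered genes only, with edgeR's own estimates of spread. These rates therefore need not hold for the real calls of either tool. The biological coefficient of variation was 0.233. A two-sided exact permutation test of 3 libraries against 3 cannot go below p = 0.1, so none was run. The edgeR p-values weigh the difference between conditions against the spread between these libraries, with estimates of spread shared across genes.

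Named by rule were the 6 members, Meis1, Mki67, up to 4 genes past the threshold from each list (plus up to 4 of the most abundant in the ribosomal RNA, snoRNA host and other long noncoding lists) and the 3 genes most like each member (5 for Gm26917). The endothelial, macrophage, fibroblast and smooth muscle genes given as a check of cell type are outside this rule. Plots used Python 3.11.15 and matplotlib 3.10.9.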

Additional observations from a re-analysis of the deposited data

How the results depend on the processing

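Of the 90 recomputed fold changes of the 6 RNAs, 84 moved by less than the spread between libraries, 3 moved further, and 3 turned direction: Malat1 at 0.25 without YFP-CTRL library A (and -1.29 without Meis1-OE library A) and at 1.09 with the S and G2/M phase score as a covariate, and Neat1 at 0.52 with that covariate. The summed share of the 6 differed between conditions by -4.97 percentage points against all counts except those of Gm26917 and by -5.07 against TMM effective library sizes, and leaving out single libraries moved it by less than the spread between libraries. Genes called higher numbered 1048 on library totals, 1128 in DESeq2 and 230 with the covariate, and between 115 and 2717 with single libraries left out. Genes called lower numbered 180 on library totals, 263 on totals without Gm26917, 258 on totals without the 6 RNAs, 1115 in DESeq2 and 165 with the covariate, and between 16 and 2498 with single libraries left out. The lowest counts came without Meis1-OE library B and the highest without YFP-CTRL library C. The cause was not tested.

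With the column letter as a replicate block, 544 genes were higher and 189 lower. The calls lost included those of Scarna2, Rpph1, Rmrp, H19, Zfas1, Epb41l4aos, Nhp2, Polr1a and Upf1. The correlation of deviations from the condition means between libraries of the same letter was 0.243 for A, 0.0963 for B and 0.0531 for C, and Meis1-OE library C correlated best with YFP-CTRL library B (0.189), so the letters were not taken as pairs.

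For the 8 list counts above 0, 75 of 120 recomputed values differed by over 1.5 times from the count given, and for the 18 list counts at 0, 20 of 270 rose above 0. With 3 libraries per condition, a value of Malat1 or Neat1 rests mainly on YFP-CTRL library A. Depth limits Snhg12 most among the 6, at 203 to 339 counts.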
